A study of Ambystoma mexicanum with 15 samples.

Results

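PSAT1 encodes phosphoserine aminotransferase, an enzyme of serine synthesis. It was measured here in axolotl (Ambystoma mexicanum) spinal cord. The gene was chosen by its measured levels in these same arrays, so its own values below are a description without a test. Every probe set annotated with the symbol PSAT1 was taken, and there was 1, axo00298-f_at, among 20080 probe sets on the array and 8639 genes with a symbol.

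The study profiled spinal cord, which axolotls regenerate, on 15 Affymetrix arrays, 3 in each of 5 groups. All animals were white axolotls aged 1 month, and each array held RNA from the pooled tissue of 10 animals. The groups were uninjured cord, cord at 1, 3 and 7 days after a piece of it had been removed, and cord injured in the same way, given ivermectin and taken at 1 day. Ivermectin is a drug that opens ligand-gated chloride channels. It was injected by pressure into the central canal just before the injury. The protocol also mentions injection of water alone, but the labels of the 1 day group do not say whether those animals received it, so drug and injection cannot be told apart in the comparison of these groups. No dose is given, the labels call only the uninjured tissue mature, and how much tissue around the cord was taken is not stated.

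Cells make serine from 3-phosphoglycerate, an intermediate of glycolysis, in a short route of enzymes. PHGDH oxidizes 3-phosphoglycerate, PSAT1 then moves an amino group from glutamate onto the product with the help of pyridoxal phosphate, a form of vitamin B6, and leaves 2-oxoglutarate, and PSPH removes the phosphate to give serine. Serine feeds glycine, the folate-bound one-carbon units used for nucleotide synthesis, and membrane lipids, and in the nervous system of mammals the route is active mainly in glia and progenitor cells. The gene roles given below are those known from mammals.

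PSAT1 was high in uninjured cord and lower at all times after injury. After injury with ivermectin it was nearer to its uninjured level than to its level at 1 day, but lower than in uninjured cord. The values are log2 expression levels from robust multi-array averaging (RMA), so that 1 unit is a doubling. The uninjured arrays read 11.96, 11.98 and 11.95. The arrays at 1 day read 8.940, 9.001 and 8.924. With ivermectin at the same time they read 11.31, 11.37 and 11.36. Ivermectin arrays therefore lay far above untreated arrays of the same day and below uninjured arrays, with no overlap on either side. At 3 days the level was 9.56, 9.65 and 9.51. At 7 days it was 8.001, 7.860 and 7.834, the lowest of the series. In descending order the groups were uninjured, ivermectin, 3 days, 1 day and 7 days, and no neighbours in this order overlapped.

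**Figure D1:**
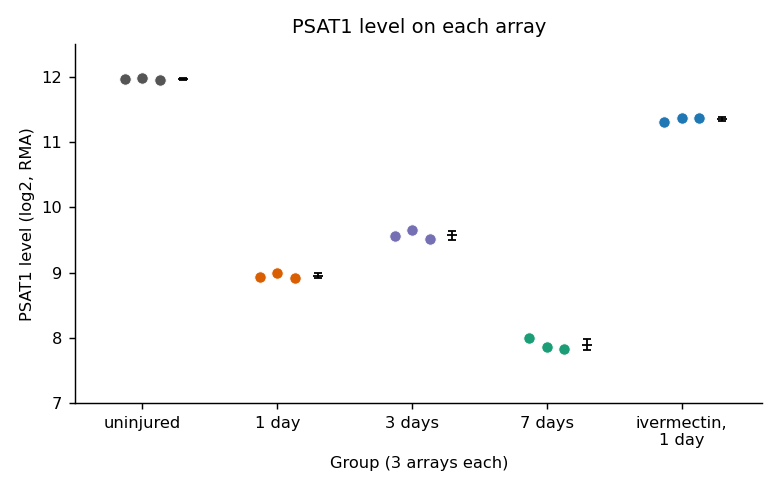
The PSAT1 level on each array (vertical axis, log2 RMA value) is plotted for the 5 groups, with the group mean and SD of 3 arrays as a dash and bar beside the points. Uninjured arrays lie near 12, ivermectin arrays between 11.31 and 11.37, and the arrays at 1, 3 and 7 days between 7.83 and 9.65. The vertical axis starts at 7, not at 0.

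The gaps between neighbouring groups were wider than the spread within any of them. PSAT1 was chosen by these levels, so this describes the choice and is not a test. From top to bottom, the nearest arrays of neighbouring groups were 0.58, 1.66, 0.51 and 0.92 apart, while the SD within a group ran from 0.0159 (uninjured, n = 3) to 0.0897 (7 days, n = 3). All 15 PSAT1 readings were above the lower quartile of their arrays, which lay between 4.21 and 4.28. At 1 and 3 days the readings also exceeded the upper quartiles, which lay between 7.92 and 8.01. At 7 days they were below the upper quartiles of their arrays. In pooled tissue, fewer cells that express a gene and less RNA per cell cannot be told apart, and this holds for each level and difference given here.

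As log2 differences from uninjured cord, PSAT1 was at -3.01 ± 0.05 (SE, n = 3 arrays per group) at 1 day, 8.05-fold lower. The value was -2.39 ± 0.05 at 3 days, 5.25-fold lower, and -4.07 ± 0.05 at 7 days, 16.8-fold lower. The order in time was not monotonic: the level at 3 days was 0.62 ± 0.05 above that at 1 day, and the level at 7 days was -1.67 ± 0.05 relative to 3 days. Ranked by difference among the 8639 genes, PSAT1 was the lowest of all at 1 day and at 7 days and rank 31 from the lowest at 3 days. The next lowest genes at 1 day were NCOA7, a nuclear receptor coactivator, at -2.78 ± 0.08, and ILF2, a double-stranded RNA binding protein, at -2.57 ± 0.05. These ranks describe how the gene was chosen, and no test was made of them.

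With ivermectin, PSAT1 was 2.39 ± 0.05 higher than at 1 day after injury without the drug, a 5.25-fold difference and rank 8 from the highest. Against uninjured cord the ivermectin level was -0.62 ± 0.05, or 1.53-fold lower, at rank 41 from the lowest. The comparisons of 1 day with uninjured, of ivermectin with 1 day and of ivermectin with uninjured share their arrays and are not independent of one another.

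PHGDH, the first enzyme of the route, was not used to choose PSAT1 and was tested. The list that holds it and PSPH was, however, written with earlier results of these data known. Uninjured arrays read 9.51, 9.52 and 9.57 for PHGDH, against 8.85, 8.76 and 8.74 at 1 day. At 3 days PHGDH read 8.90, 8.83 and 8.73, and at 7 days 8.96, 8.82 and 8.85. Ivermectin arrays read 9.18, 9.47 and 9.39. The injured groups without drug overlapped one another and lay below all uninjured and ivermectin arrays. The share of all genes that divide in this way was not counted. PHGDH fell by 0.75 ± 0.07 at 1 day (limma adjusted p = 3.19e-07), by 0.72 ± 0.07 at 3 days (limma adjusted p = 3.92e-07) and by 0.65 ± 0.07 at 7 days (limma adjusted p = 1.08e-06). It rose by 0.56 ± 0.07 with ivermectin relative to 1 day (limma adjusted p = 6.14e-06). Its difference between ivermectin and uninjured cord, -0.19 ± 0.07, did not pass the threshold (limma adjusted p = 0.154).

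PSPH, the last enzyme, had a larger difference. Uninjured arrays read 7.89, 8.13 and 8.12, and ivermectin arrays 7.70, 7.82 and 7.91. At 1 day PSPH read 6.05, 5.95 and 5.90. The readings were 5.90, 5.92 and 6.08 at 3 days and 6.004, 5.765 and 5.767 at 7 days. All 9 arrays from injured cord without drug lay below all 6 others, a division whose share over all genes was not counted. PSPH fell by 2.08 ± 0.09 at 1 day, which is 4.24-fold (limma adjusted p = 3.25e-11), by 2.08 ± 0.09 at 3 days (limma adjusted p = 1.69e-11) and by 2.20 ± 0.09 at 7 days (limma adjusted p = 9.67e-12). It rose by 1.85 ± 0.09 with ivermectin relative to 1 day (limma adjusted p = 1.07e-10), and the difference of ivermectin from uninjured, -0.24 ± 0.09, missed the threshold (limma adjusted p = 0.132).

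A second PSPH probe set gave differences of -2.23, -1.91 and -2.18 at 1, 3 and 7 days and 2.14 between ivermectin and 1 day, all past the threshold in the same directions. Between the injured groups the enzymes differed in pattern. PSAT1 was lower at 7 days than at 3 days, whereas PHGDH differed by 0.06 (limma adjusted p = 0.523) and PSPH by -0.12 (limma adjusted p = 0.286) between these times. The second PSPH probe set did fall from 3 to 7 days, by 0.27 (limma adjusted p = 0.0251), after a rise of 0.31 from 1 to 3 days (limma adjusted p = 0.0107).

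**Figure D2:**
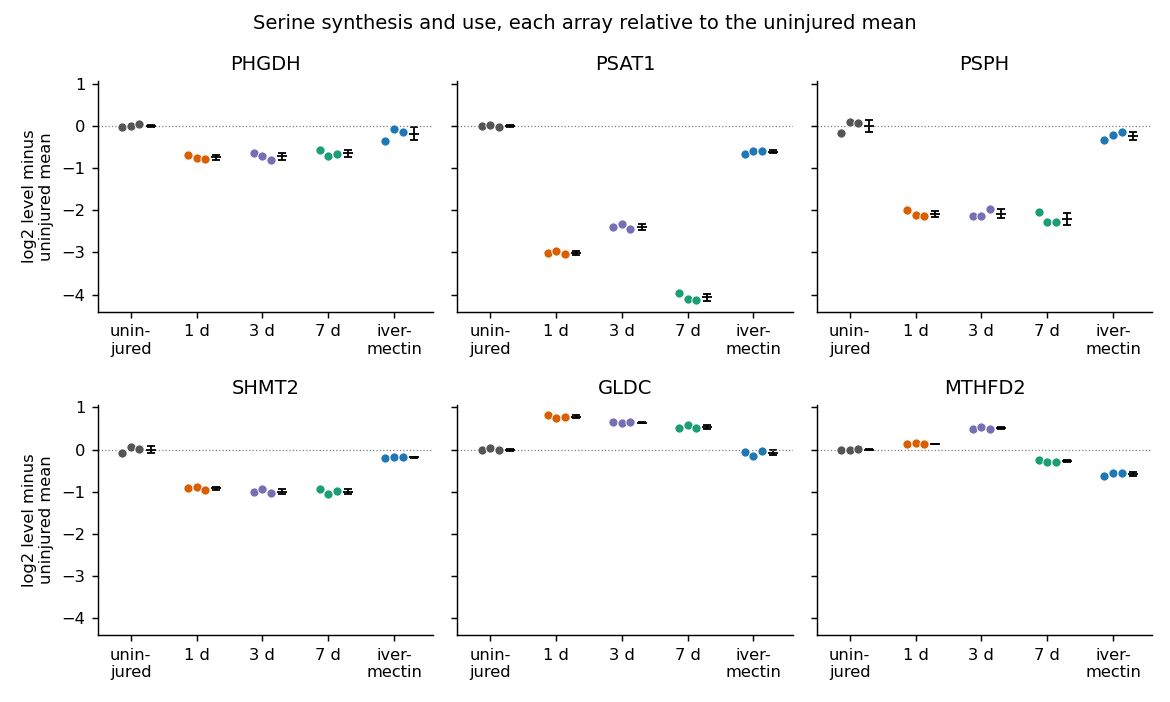
Log2 levels of 6 genes on each array are drawn relative to that gene's uninjured mean (vertical axis, the same in all panels), with the mean and SD of 3 arrays beside the points. The upper panels follow the serine route in order, PHGDH, PSAT1 and PSPH, and the lower panels show SHMT2, GLDC and MTHFD2, which use serine, glycine or the folate units made from them. Injured arrays without drug are near -0.7 for PHGDH, near -2.1 for PSPH and between -2.3 and -4.1 for PSAT1, while GLDC lies above its uninjured mean at all 3 times.

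Counted as a list without PSAT1, both serine synthesis genes fell at 1 day, where 29.8% of all 8639 genes with a symbol were called lower and 25.8% higher. A gene is called here when its limma p, adjusted by the Benjamini-Hochberg method over 20035 probe sets, is under 0.05. Both also fell at 3 days, against a background of 32.5% lower and 29.4% higher, and at 7 days, against 29.2% lower and 31.1% higher. Both rose with ivermectin relative to 1 day, where 30.9% of genes were called higher and 26.6% lower. Neither was called between ivermectin and uninjured, where the background was 3.06% higher and 4.33% lower. Between 3 days and 1 day neither was called either, with 22.2% of genes higher and 20.2% lower, nor between 7 days and 3 days, with 25.6% higher and 16.8% lower. With the first uninjured array left out, 1 of the pair was called lower with ivermectin.

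Downstream of serine, 23 folate and glycine genes were measured of 29 listed. At 1 day 11 were lower and 5 higher, where 29.8% of all genes were lower and 25.8% higher. The median difference was -0.14 against 0.00 over all genes. The counts were 9 lower and 8 higher at 3 days (median -0.10) and 10 lower and 6 higher at 7 days (median -0.04). Over all genes 32.5% were lower and 29.4% higher at 3 days, and 29.2% lower and 31.1% higher at 7 days. With ivermectin relative to 1 day, 11 were higher and 6 lower (median 0.08), against 30.9% and 26.6% of all genes. In these comparisons members were called in both directions, and the list's median stayed within 0.2 of that of all genes.

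The mitochondrial enzyme SHMT2, which splits serine into glycine and a one-carbon unit, was among the genes that fell. It read 10.80, 10.95 and 10.91 in uninjured arrays and 10.68, 10.70 and 10.72 with ivermectin. It read 9.97, 10.00 and 9.93 at 1 day, 9.87, 9.95 and 9.84 at 3 days, and 9.95, 9.82 and 9.90 at 7 days. Every injured array without drug was below every uninjured and ivermectin array, but how many of all genes do the same was not counted. SHMT2 fell by 0.92 ± 0.05 at 1 day (limma adjusted p = 1.35e-09), and by 1.00 ± 0.05 at 3 and at 7 days. It rose by 0.73 ± 0.05 with ivermectin relative to 1 day (limma adjusted p = 1.46e-08). A second SHMT2 probe set fell by 1.67, 1.95 and 1.39 at the 3 times and rose by 1.57 with ivermectin relative to 1 day. It also fell by 0.29 from 1 to 3 days and rose by 0.56 from 3 to 7 days, where the first was not called.

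Its cytosolic counterpart SHMT1 rose, by 0.14 ± 0.05 at 1 day (limma adjusted p = 0.00771), 0.21 at 3 days and 0.36 at 7 days. GLDC, the decarboxylase of the glycine cleavage system, rose by 0.78 ± 0.05 at 1 day (limma adjusted p = 1.47e-09), by 0.64 at 3 days and by 0.53 at 7 days, and fell by 0.86 with ivermectin relative to 1 day. A second GLDC probe set, with means of 4.09 to 4.23 near the arrays' lower quartile, was not called in any of the 7 comparisons. FPGS, which adds glutamate to folates, was not called at 1, 3 or 7 days, but its second probe set fell by 0.60 at 1 day, by 0.76 at 3 days and by 0.42 at 7 days, and rose by 0.77 with ivermectin relative to 1 day. MTR, methionine synthase, rose by 0.50 at 1 day, by 0.28 at 3 days and by 0.90 at 7 days.

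Other members of the list fell at 1 or more times. TYMS, thymidylate synthase, fell by 0.68 ± 0.07 at 1 day, by 0.60 at 3 days and by 0.69 at 7 days, and rose by 0.89 with ivermectin relative to 1 day. PAICS, an enzyme of purine synthesis, fell by 0.64 at 1 day, by 0.43 at 3 days and by 0.31 at 7 days, whereas ATIC, of the same route, rose by 0.19 at 1 day and by 0.42 at 7 days. SLC25A32, the mitochondrial folate carrier, fell by 1.496 ± 0.146 at 1 day, but its means of 4.319 at 1 day, 4.270 at 3 days and 4.003 at 7 days were near or below the lower quartile of the arrays, so the size of that difference is not exact. MTFMT, which formylates the mitochondrial initiator tRNA with a folate unit, fell by 0.62 at 1 day, and at 3 and 7 days it was at -0.10 and 0.03 without passing the threshold.

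MTHFD2, a mitochondrial folate enzyme, changed direction over time. It rose by 0.14 ± 0.04 at 1 day (limma adjusted p = 0.0103) and by 0.51 ± 0.04 at 3 days, and fell by 0.28 ± 0.04 at 7 days (limma adjusted p = 2.43e-05). With ivermectin it fell by 0.58 ± 0.04 relative to uninjured cord (limma adjusted p = 3.46e-07). MTHFD2 was 1 of 3 members of the list, of 23 measured, called between ivermectin and uninjured, all lower. Over all genes 4.33% were called lower and 3.06% higher there. The others were SHMT2 at -0.19 (limma adjusted p = 0.0485) and GGH, which trims folate side chains, at -0.24 (limma adjusted p = 0.0418). The second probe sets of SHMT2, at -0.10 (limma adjusted p = 0.401), and of GGH, at -0.14 (limma adjusted p = 0.395), were not called there. That count of 3 fell to 1 with a replicate block, with the 2 groups fitted alone, and without uninjured array 2 or 3 or ivermectin array 1 or 3, and it was 5 without uninjured array 1. Relative to 1 day, GGH rose by 0.37 with ivermectin, but its second probe set fell by 0.23 (limma adjusted p = 0.0243). That probe set, with means of 4.31 and 4.08, was near the arrays' lower quartile, so the direction of GGH there is not settled.

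**Figure D3:**
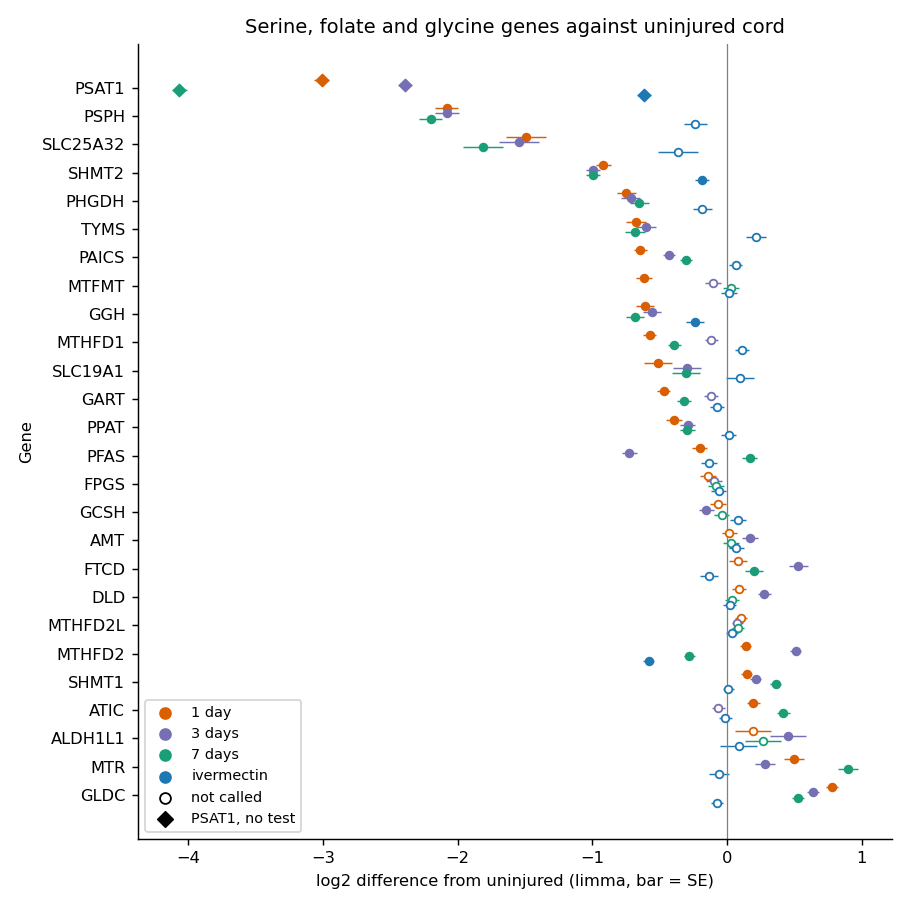
Log2 differences from uninjured cord (horizontal axis; points, bars are limma SE, n = 3 arrays per group) are shown for PSAT1, drawn as diamonds without a test, and 25 serine, folate and glycine genes at 1, 3 and 7 days and with ivermectin. Filled circles passed an adjusted p under 0.05. At 1, 3 and 7 days PSAT1 and PSPH lie farthest to the left, with SLC25A32, whose injured levels are near the lower quartile, and GLDC and MTR lie to the right. With ivermectin, PSAT1 at -0.62 and MTHFD2 at -0.58 are farthest to the left.

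Genes that carry or use serine mostly fell after injury, with 15 measured of 25 listed. At 1 day 10 were lower and 3 higher, with a median difference of -0.47. At 3 days 9 were lower and 2 higher (4 higher after median centring), and at 7 days 9 were lower and 4 higher. With ivermectin relative to 1 day, 9 were higher and 3 lower, against 30.9% and 26.6% of all genes. Over all genes 29.8%, 32.5% and 29.2% were lower at 1, 3 and 7 days and 25.8%, 29.4% and 31.1% higher. SERINC5, a serine incorporator family member of the plasma membrane, fell by 1.05 ± 0.08 at 1 day, by 0.98 at 3 days and by 1.26 at 7 days, and rose by 0.90 with ivermectin. SLC1A5, a neutral amino acid exchanger, fell by 1.14 ± 0.09 at 3 days and by 1.25 ± 0.09 at 7 days.

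Some carriers and one serine-degrading enzyme rose. SLC7A10, a neutral amino acid carrier that also takes D-serine, rose by 1.34 ± 0.08 at 1 day and fell by 1.35 ± 0.08 with ivermectin relative to 1 day. SDSL, a serine dehydratase-like enzyme, rose by 0.74, 0.96 and 0.93 at 1, 3 and 7 days, but its second probe set, at 0.12, 0.10 and 0.15, was not called in any of the 7 comparisons. SLC38A2, a sodium-coupled neutral amino acid carrier, read 8.73, 8.91 and 8.81 in uninjured arrays, 9.03, 9.13 and 9.11 at 1 day, and 6.88, 7.24 and 7.27 at 3 days. It rose by 0.28 ± 0.09 at 1 day (limma adjusted p = 0.0137) and fell by 1.69 ± 0.09 at 3 days (limma adjusted p = 1.9e-10) and by 1.62 ± 0.09 at 7 days. It was the 1 gene of the 15 in this list called between ivermectin and uninjured, where it fell by 0.72 ± 0.09 (limma adjusted p = 9.1e-05). Over all genes 4.33% were called lower and 3.06% higher there, so that count is near the share of all genes. Without ivermectin array 3, 2 genes were called there.

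In mammals PSAT1, PHGDH and PSPH are among the targets of ATF4, the transcription factor of the amino acid response. Of 37 genes listed for that response, PSAT1 not among them, 20 were measured. Those without a named probe set included ATF3, CEBPB, CHAC1 and all tRNA synthetases of the list. At 1 day 11 were lower and 4 higher (median -0.26), at 3 days 14 were lower and 2 higher (median -0.48), and at 7 days 13 were lower and 3 higher (median -0.40). With ivermectin relative to 1 day, 9 were higher and 6 lower. Between ivermectin and uninjured 7 were lower and 0 higher, and 13 did not pass the limma threshold. Over all genes 29.8%, 32.5% and 29.2% were lower at 1, 3 and 7 days and 25.8%, 29.4% and 31.1% higher. With ivermectin 30.9% were higher and 26.6% lower relative to 1 day, and 3.06% higher and 4.33% lower relative to uninjured cord.

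ATF4 and ASNS were added to the named genes after their values were seen. ATF4 itself read 12.41, 12.31 and 12.35 in uninjured arrays and 12.21, 12.13 and 12.15 at 1 day. It fell by 0.19 ± 0.05 at 1 day (limma adjusted p = 0.00283), by 0.23 at 3 days and by 0.30 at 7 days. ASNS, asparagine synthetase and an ATF4 target, was not called at any time, with differences of -0.01, 0.02 and 0.03 and array levels between 8.89 and 9.02 in all 5 groups. At each of these times the list had members called lower, called higher and not called, and the part of ATF4 was not tested.

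DDIT3, a transcription factor induced by stress, fell at all 3 times, with differences of -1.03 ± 0.05 at 1 day, -2.43 ± 0.05 at 3 days (limma adjusted p = 1.09e-14) and -2.07 ± 0.05 at 7 days. PCK2, the mitochondrial phosphoenolpyruvate carboxykinase, read 10.31, 10.36 and 10.39 in uninjured arrays, 9.15, 9.13 and 9.13 at 1 day, and 10.00, 10.11 and 10.11 with ivermectin. It fell by 1.22 ± 0.06 at 1 day (limma adjusted p = 1.13e-10), by 1.40 at 3 days and by 1.67 at 7 days, and rose by 0.94 with ivermectin relative to 1 day. ATF5, a stress-response factor related to ATF4, fell by 1.47 at 3 days and by 1.56 at 7 days. GPT2, the mitochondrial alanine aminotransferase, fell by 1.11 at 1 day, from a mean of 4.84 to one of 3.73 that was below the lower quartile of the arrays.

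SLC7A3 and NUPR1 of the same list were lower with ivermectin than at 1 day. SLC7A3, a carrier of cationic amino acids, rose by 0.75 ± 0.04 at 1 day (limma adjusted p = 8.55e-10) and fell by 1.64 ± 0.04 at 3 days and by 1.84 ± 0.04 at 7 days. With ivermectin it fell by 0.59 ± 0.04 relative to uninjured cord (limma adjusted p = 3.46e-07). NUPR1, a stress-induced chromatin protein, read 10.27, 10.31 and 10.32 in uninjured arrays, 10.33, 10.27 and 10.25 at 1 day, and 9.16, 9.21 and 9.25 with ivermectin. It fell by 1.10 ± 0.05 with ivermectin relative to uninjured cord (limma adjusted p = 3.37e-09), and its difference at 1 day without the drug was -0.02 (limma adjusted p = 0.785). PSAT1 was at -0.62 in the same ivermectin comparison and at -3.01 at 1 day.

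Glycolysis, which supplies 3-phosphoglycerate, had the opposite balance, with 16 genes measured of 19 listed. At 1 day 13 were higher and 1 lower (median 0.40), at 3 days 14 were higher and 1 lower (median 0.59), and at 7 days 12 were higher and 1 lower (median 0.46). With ivermectin relative to 1 day 12 were lower and 0 higher, with 4 not called by limma, against 26.6% lower and 30.9% higher of all genes. Over all genes 25.8%, 29.4% and 31.1% were higher at 1, 3 and 7 days and 29.8%, 32.5% and 29.2% lower. PGK1, whose product is 3-phosphoglycerate, read 10.67, 10.70 and 10.63 in uninjured arrays and 11.76, 11.72 and 11.70 at 3 days. It rose by 1.06 ± 0.04 at 3 days (limma adjusted p = 1.8e-11) and by 0.85 ± 0.04 at 7 days.

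PGAM1, a mutase that uses 3-phosphoglycerate, was the 1 glycolysis gene lower at each time, with differences of -0.22 at 1 day, -0.53 at 3 days and -0.89 at 7 days (limma adjusted p = 4.14e-10 at 7 days). ENO3, the enolase of muscle, rose by 0.86, 1.12 and 0.99 at the 3 times, and TPI1, triosephosphate isomerase, by 0.60 and 0.92 at 1 and 3 days. Between ivermectin and uninjured cord 1 of 16 glycolysis genes was called, ENO1 at -0.16 ± 0.04. This is near the share of all genes, of which 4.33% were lower and 3.06% higher there. The count in the list was 0 with the 2 groups fitted alone, without uninjured array 1, 2 or 3 and without ivermectin array 1 or 3. It was 2 with an intensity trend, with cyclic loess, with median centring and with dim probe sets left out. Other probe sets of HK1, PFKL and PFKP were called in the opposite direction in 1 or more comparisons, so the direction of those 3 genes is not settled.

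Of 21 genes listed for glutamate and 2-oxoglutarate, the amino donor of the PSAT1 reaction and its product, 13 were measured. At 1 day 6 were higher and 3 lower (median 0.06), at 3 days 7 and 2 (median 0.17), and at 7 days 5 and 4 (median 0.13). Over all genes 25.8%, 29.4% and 31.1% were higher at these times and 29.8%, 32.5% and 29.2% lower. PDXK, the kinase that makes the cofactor form of vitamin B6 that aminotransferases need, rose by 0.54 ± 0.05 at 1 day, by 0.83 at 3 days and by 0.68 at 7 days. D2HGDH, which oxidizes D-2-hydroxyglutarate to 2-oxoglutarate, rose by 0.72, 0.69 and 0.79. OAT, ornithine aminotransferase, rose by 0.96 ± 0.05 at 3 days. With ivermectin relative to 1 day 4 of the list were higher and 5 lower, against 30.9% and 26.6% of all genes. Relative to uninjured cord 1 of 13 was called, ASS1 at -0.14 ± 0.04, which was not called without any 1 of the 6 arrays. Over all genes 4.33% were lower and 3.06% higher there, so that count is near the share of all genes.

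**Figure D4:**
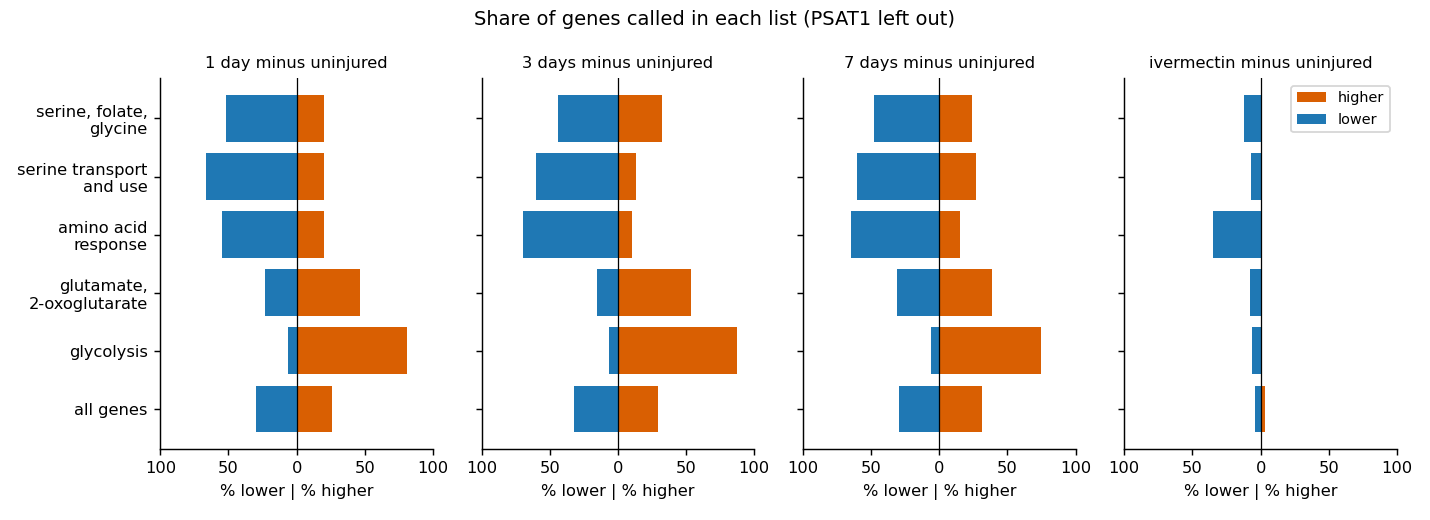
Bars give the percent of measured genes in each list called lower (left) or higher (right) by limma at an adjusted p under 0.05, for 4 comparisons with uninjured cord, above the same shares of all 8639 genes. Lower calls outnumber higher ones in the serine transport and amino acid response lists at 1, 3 and 7 days, and glycolysis has 12 to 14 of 16 genes higher. With ivermectin no list has a gene called higher.

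Between 1 and 3 days, when the PSAT1 level was 0.62 higher at the later time, 8 folate and glycine genes were higher and 4 lower (2 lower after median centring and without 3 day array 2 or 3). In the amino acid response list 2 were higher and 8 lower, the latter 5 without 1 day array 1. Of the serine transport and use genes 5 were higher (3 without 3 day array 1) and 4 lower. Over all genes 22.2% were higher and 20.2% lower at 3 days than at 1 day. Between 3 and 7 days, when PSAT1 was lower by 1.67, folate and glycine genes split into 5 higher (3 after cyclic loess) and 5 lower, and amino acid response genes into 6 higher and 3 lower. Over all genes 25.6% were higher and 16.8% lower at 7 days than at 3 days. Glycolysis genes were 11 higher and 2 lower from 1 to 3 days, and 0 higher and 10 lower from 3 to 7 days, with 6 not called by limma.

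The profile of PSAT1 over the 15 arrays was set against those of the other 8638 genes by Pearson correlation. This describes likeness across arrays that share groups, and many genes followed the same division: 324 genes, 3.75%, had r over 0.9 and 457, 5.29%, had r under -0.9. Most like it were GHITM, a protein of the inner mitochondrial membrane, at 0.987, SPEN, a transcriptional corepressor, at 0.983, and RNF139, a ubiquitin ligase of the endoplasmic reticulum, at 0.980. ACTN4, an actin crosslinker, PGD, a dehydrogenase of the pentose phosphate route, and ZNF598, a sensor of stalled ribosomes, followed at 0.979. CHCHD10, ARAP2 and TMEM165 were at 0.974 and ATAD2 at 0.973. Most opposite were PGM2 at -0.991, MAN1C1 at -0.988, BTBD2 at -0.987, SCRN1 at -0.986 and ATG4B at -0.984.

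At 1 and 7 days PSAT1 fell further than these genes. Its rank as the lowest of all genes at these times fixed that in advance. At 1 day the 10 genes most like it were between -1.02 (ATAD2) and -0.26 (PGD) relative to uninjured cord, where PSAT1 was at -3.01. Correlations were drawn out only for a few pathway genes picked by name, so the share of the lists with a high r is not given. Of these, PSPH had r = 0.943 at rank 107 of 8638, SLC25A32 0.943 at rank 109 and SHMT2 0.932 at rank 158. TYMS had r = 0.890 at rank 391 and PHGDH 0.882 at rank 445. SHMT1 had r = -0.923, GLDC -0.839 and MTHFD2 -0.202.

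**Figure D5:**
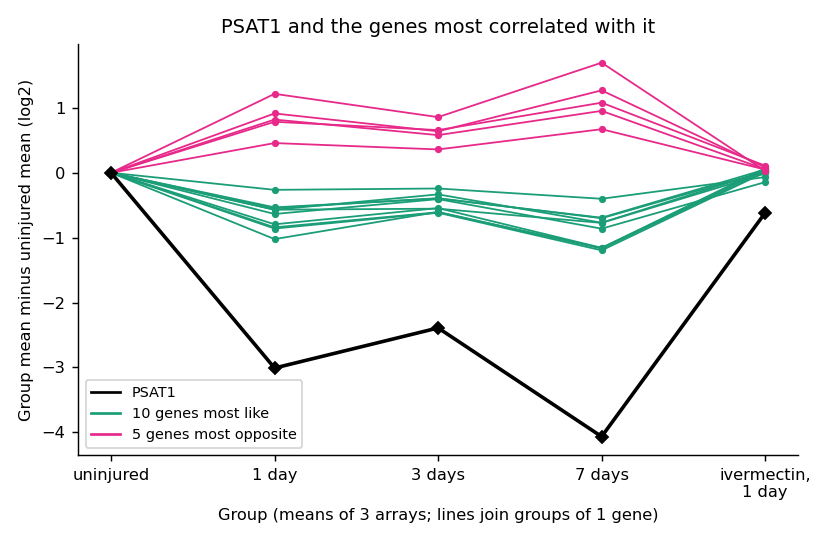
Group means of 3 arrays minus the uninjured mean (vertical axis, log2) are joined for PSAT1, the 10 genes with the highest Pearson r to it and the 5 with the lowest r over 15 arrays. The 10 genes most like PSAT1 have their lowest mean at 7 days, as it does, but stay above -1.2 where PSAT1 lies at -4.07, and the 5 most opposite genes have their highest mean there.

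Several measures that are not about serine moved with these groups, and their part in the results was not tested. Poly-A control RNA added before labelling, read by 24 probe sets, averaged 7.54 ± 0.0286 (SD, n = 3) in uninjured arrays and 7.43 ± 0.0475 with ivermectin. It averaged 8.08 ± 0.0441, 8.33 ± 0.0955 and 7.94 ± 0.140 at 1, 3 and 7 days. Like PSAT1, it sets the uninjured and ivermectin arrays apart from the others. Among the injured groups without drug its order was not that of PSAT1. The control was farthest from uninjured at 3 days and nearest at 7 days, where PSAT1 was farthest. Array medians, which RMA makes nearly even, ran from 5.81 to 5.90 and divided the arrays in the same way. They were 5.8715 to 5.8995 in uninjured and ivermectin arrays and 5.8087 to 5.8657 in the other injured arrays. Arrays of a group correlated at 0.997 to 0.999.

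Some marker lists of cell types moved as well. These lists too were written with earlier results of these data known, so their counts are a description. At 1 day 25.8% of all genes were called higher and 29.8% lower, and with ivermectin relative to 1 day 30.9% higher and 26.6% lower. All 12 measured genes of proliferating cells fell at 1 day, with a median of -1.30, and all 12 rose with ivermectin relative to 1 day. Their mean level per array was 9.12 to 9.16 in uninjured, 7.75 to 7.80 at 1 day, 8.33 to 8.35 at 3 days, 8.08 to 8.13 at 7 days and 9.40 to 9.41 with ivermectin. All 8 measured skeletal muscle genes rose at 1 day and fell with ivermectin relative to 1 day, and their mean level per array was 10.62 to 10.69 in uninjured and 12.19 to 12.21 at 1 day. It was 12.14 to 12.17 at 3 days, 11.83 to 11.88 at 7 days and 10.58 to 10.62 with ivermectin.

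Ependymoglia, the cells that line the central canal, were followed by 10 measured genes of 14 listed, and SOX2 had no named probe set. At 1 day 4 of these rose and 1 fell (2 without uninjured array 3). At 3 days 4 rose and 3 fell, and at 7 days 5 rose and 2 fell (1 without uninjured array 2 or 3). Their mean level per array was 7.23 to 7.33 in uninjured, 7.46 to 7.47 at 1 day and 7.19 to 7.24 at 3 days. It was 7.60 to 7.65 at 7 days and 7.35 to 7.40 with ivermectin. Over all genes 25.8%, 29.4% and 31.1% were called higher at 1, 3 and 7 days and 29.8%, 32.5% and 29.2% lower. Of 9 measured markers of epidermis and other epithelium, 5 fell and 1 rose at 1 day, and 8 fell at 3 and at 7 days. The liver, gut and kidney list was also written with earlier results of these data known. Of its 7 measured genes, 6 rose and 1 fell at 1 day, and 5 rose and 2 fell at 3 and at 7 days. Their mean level per array went from 6.56 to 6.64 in uninjured cord to 7.88 to 7.94 at 1 day, 10.47 to 10.50 at 3 days and 9.56 to 9.65 at 7 days, with 7.13 to 7.19 after ivermectin. GFAP, VIM, NEFM and MBP of cord had group means far above the arrays' lower quartile. So had CKM of muscle, at 14.08 to 14.41, and KRT8 of epithelium, at 12.93 to 13.52. ALDOC of the ependymoglia list and SYT1 of the neuronal list were below that quartile on all 15 arrays.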

How the data were processed

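RNA of 15 pools of spinal cord was hybridized to an Affymetrix axolotl array. The authors deposited log2 values per probe set, made by RMA in Affymetrix Expression Console per the submitters' processing notes. RMA corrects background, evens the arrays and summarises probes. Versions, and whether all arrays were normalized together, are not given in the sources used here. The values were used as deposited, and 45 control probe sets were set aside.

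One mean per group was fitted to 20035 probe sets on 15 arrays with limma 3.58.1 (lmFit, eBayes; R 4.3.3), and 7 comparisons were tested 2-sided with Benjamini-Hochberg adjustment over all probe sets. Of several probe sets, the brightest on average stood for its gene. The code was tested on simulated data, and the plots were made in matplotlib 3.10.9 under Python 3.11.15. No detection call was used, arrays carry no count depth, their number limits the precision, and p-values measure only how much the pools differ, which may be technical in part.

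PSAT1 and the lists, written from textbook knowledge, were chosen with earlier results of these data known. All serine synthesis, folate and glycine genes could be named, and up to 4 called genes with the largest difference per other list and comparison. Not all of these are described: the folate and glycine genes in the text are a selection of those measured. The plot of their differences from uninjured cord shows all that were measured. Also named were the 10 genes most and 5 least correlated with PSAT1, and its neighbours in rank at 1 day. Identical arrays numbered 0. Of 30 pairs of arrays with the same replicate number in different groups, 1 had a residual correlation above 0.1 (median -0.0062). Pairs with different numbers were not set beside them, so whether the numbers pair arrays is not settled. Alternatives were a replicate block, the 2 compared groups alone, an intensity trend with robust eBayes, cyclic loess, median centring, the lowest 25% of probe sets left out, averaging of all probe sets per gene, and each array left out in turn.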

Additional observations from a re-analysis of the deposited data

Results flagged for a closer look

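Among the 89 measured genes of the lists around PSAT1, 12 differences were singled out because a gene was called in opposite directions in 2 comparisons with the same uninjured arrays, and the groups themselves differed past the limma threshold. That last difference follows largely from the choice and adds no support of its own. Each value is a log2 difference, the last of each set with its SE (n = 3 arrays per group).

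From 1 to 3 days, 3 of the 89 genes (3.37%) turned from higher to lower than uninjured cord, and 3.46% of all 8639 genes turned in either direction. The carrier SLC38A2 was at 0.28 and then -1.69, a difference of -1.96 ± 0.09. The carrier SLC7A3 was at 0.75 and then -1.64, a difference of -2.39 ± 0.04. PYCR1, an enzyme of proline synthesis, was at 0.19 and then -0.15, a difference of -0.34 ± 0.06.

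From 3 to 7 days, 5 genes (5.62%) turned, against 2.34% of all genes. MTHFD2 was at 0.51 and then -0.28, a difference of -0.79 ± 0.04. PFAS, of purine synthesis, was at -0.73 and then 0.17, a difference of 0.89 ± 0.06, and PYCR1 was at -0.15 and then 0.49, a difference of 0.65 ± 0.06. GOT1, the cytosolic aspartate aminotransferase, differed by -0.41 ± 0.06 and OGDH, a subunit of 2-oxoglutarate dehydrogenase, by -0.49 ± 0.07, both from above to below uninjured cord. A second OGDH probe set was not called at 3 or 7 days.

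At 1 day after injury, 4 genes (4.49%) were above uninjured cord without and below it with ivermectin, and 3.8% of all genes were on opposite sides of it. The differences of ivermectin from 1 day were -0.72 ± 0.04 for MTHFD2, -0.99 ± 0.09 for SLC38A2, -1.34 ± 0.04 for SLC7A3 and -0.63 ± 0.04 for the glycolytic enolase ENO1.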

How the results depend on the processing

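With equal groups, a replicate block, the 2 groups alone, an intensity trend and leaving out dim probe sets cannot change a difference of means. The PSAT1 value under those settings was therefore fixed in advance. The PSAT1 differences kept their sign under those that could change them, which were cyclic loess, median centring and each array left out. They moved by more than the SD between replicates at 1 day (-2.93 with cyclic loess, -2.97 with median centring, against -3.01), at 3 days (-2.34 and -2.32, against -2.39) and for ivermectin minus 1 day (2.31 and 2.35, against 2.39). With 1 array left out they ranged from -3.03 to -2.99 at 1 day, from -2.43 to -2.36 at 3 days and from -4.12 to -4.03 at 7 days. With 1 PSAT1 probe set, averaging probe sets gives no other value. A replicate block changed the probe sets called between ivermectin and uninjured from 1393 to 1229. That count was 861 with the 2 groups alone, up to 1745 with an intensity trend, and 904 to 1145 with 1 array left out, the lowest without uninjured replicate 2, and 916 without ivermectin replicate 2. Counts in lists for this comparison moved most, and ranges for lists other than serine, folate and glycine and amino acid response were added after seeing the data. For 1, 3 and 7 days against uninjured cord and ivermectin minus 1 day, calls of the genes in the lists around PSAT1 were also followed. With 1 array left out 1590 of 1650 were kept, and under the other settings 1878 of 1915. This count left out ivermectin minus uninjured and the comparisons between injured times. With the mean of all probe sets, 5 calls were lost with a change of sign to values near 0 (adjusted p from 0.393 to 0.987): PFKP was then at -0.07 at 1 day, -0.02 at 3 days and 0.0014 for ivermectin minus 1 day, PFKL at -0.05 at 3 days and HK1 at 0.02 for ivermectin minus 1 day. Levels near the arrays' lower quartile, as of SLC25A32 and GPT2 after injury, limit those differences.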

Other observations

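Other cell type lists, also written with earlier results of these data known, give the setting of the PSAT1 levels. Calls are by limma at an adjusted p under 0.05. At 1 day 25.8% of all genes were called higher and 29.8% lower. The shares were 29.4% and 32.5% at 3 days and 31.1% and 29.2% at 7 days. With ivermectin they were 30.9% and 26.6% relative to 1 day, and 3.06% and 4.33% relative to uninjured cord. Of 8 measured neuronal genes, 5 rose and 0 fell at 1 day, with 3 not called, and 7 rose and 1 fell at 3 days (0 fell without uninjured array 1 or 3 day array 1). With ivermectin 4 of the 8 rose relative to uninjured cord (2 without ivermectin array 2). Of 10 measured macrophage and leukocyte genes, 3 rose and 3 fell at 1 day, near the shares of all genes. At 7 days 6 rose and 0 fell, while PTPRC and ITGB2 were below the lower quartile on all 15 arrays. All 4 measured red cell genes rose at 1 day and fell with ivermectin relative to 1 day. Of 10 connective tissue and cartilage genes, 6 rose and 3 fell at 1 day and 2 rose and 6 fell with ivermectin relative to 1 day. The oligodendrocyte list had 2 measured genes, 1 higher and 1 lower at 1 day.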
